A study of Mus musculus with 3 samples.

Results

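The genes of fatty acid and glucose use are the 48 genes of a fixed list, 25 for fatty acids and 23 for glucose, among 21883 annotated protein-coding genes. Their 5-methylcytosine (5mC) peaks were those overlapping a gene body, from start to end in the RefSeq annotation of mouse build GRCm38 (mm10), or the 5 kb on either side. These windows held 127 of 135886 peaks in the Sham library (0.0935%) and 126 of 162107 in the TAC library (0.0777%). The libraries came from methylated DNA immunoprecipitation with sequencing (MeDIP-seq) of DNA from isolated cardiomyocytes of male C57Bl6/J mice, 8 weeks of age per the labels, after Sham surgery or after TAC, a pressure overload of 1 week. An Input library without antibody served the authors' peak calling. Each group was 1 library, and the labels do not say whether a library pooled animals. Without replicates Sham and TAC could not be tested against each other, and every interval below is an exact 95% interval for counting error only. A peak is a region enriched over input, not a methylation level, and a gene without a peak is one where no region passed the authors' threshold.

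The adult heart draws most of its energy from fatty acids, which enter the cell, are activated to acyl-CoA, cross the inner mitochondrial membrane by the carnitine shuttle and are shortened by beta-oxidation. Glucose enters through transporters, is phosphorylated by hexokinase and passes through glycolysis to pyruvate, which is reduced to lactate or oxidised by pyruvate dehydrogenase. Under sustained pressure load the heart is known for a shift from fatty acids towards glucose. Methylation of CpG-rich promoters is a mark of silenced genes, whereas methylation within the body of transcribed genes is common.

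The Sham library had 12585289 tags and the TAC library 14658177, per the file headers, a ratio of 1.16, and all peaks stood at a TAC to Sham ratio of 1.19. The deposited files give no signal per peak. In each list the early peaks were wide and mostly present in the other library (median width in the first 10% 958 bp in Sham and 891 bp in TAC, 98.4% shared in both) and the late ones were narrow (501 bp in both, with 39.5% and 22.7% shared). A peak's place in the list, in percent from the top, is used below as a rough rank of strength, a reading that the headers do not state and that orders many weak peaks only coarsely, since neighbours often stand next to each other in the list. The lists hold no expression, so the labelled cell type could not be checked by it. A peak within 1 kb of a gene end was found in 4 (Sham) and 5 (TAC) of 10 cardiomyocyte marker genes, in 1 of 8 fibroblast, 3 of 7 endothelial and 4 of 7 immune markers in each library, and in 23.6% (Sham) and 24.5% (TAC) of all protein-coding genes. Actc1 and Pln had no peak. Marker windows held 43 Sham and 64 TAC peaks for cardiomyocytes, 15 and 23 for fibroblasts, 54 and 52 for endothelial cells, and 18 and 28 for immune cells. The part of other cell types in the values below was not tested.

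Promoters were almost free of peaks in both sets. RefSeq promoter intervals on GRCm38.p6, from 250 bases before to 50 after a gene start, were at hand for 45 of the 48 genes (59 intervals, all but Cpt1b, Lpl and Slc2a4). No interval overlapped a Sham peak. In TAC, Plin5 (1 of 23 fatty acid genes) and Pkm (1 of 22 glucose genes) had one that did. Over all protein-coding genes with an interval, 3.6% were overlapped in Sham and 3.85% in TAC, so these small counts were near the background. The sequences show both overlapped promoters and, in each set, those with the most and the fewest CpG dinucleotides among intervals that no peak overlapped. Each is the stretch of 250 bases before the start, 5′ to 3′ on the gene's strand, with CpG in capitals.
Plin5: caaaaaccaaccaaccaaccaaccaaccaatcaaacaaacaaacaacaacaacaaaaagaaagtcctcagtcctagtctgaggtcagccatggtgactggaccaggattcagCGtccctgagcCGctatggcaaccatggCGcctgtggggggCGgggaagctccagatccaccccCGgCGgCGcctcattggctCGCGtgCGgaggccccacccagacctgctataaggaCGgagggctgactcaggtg
Pkm: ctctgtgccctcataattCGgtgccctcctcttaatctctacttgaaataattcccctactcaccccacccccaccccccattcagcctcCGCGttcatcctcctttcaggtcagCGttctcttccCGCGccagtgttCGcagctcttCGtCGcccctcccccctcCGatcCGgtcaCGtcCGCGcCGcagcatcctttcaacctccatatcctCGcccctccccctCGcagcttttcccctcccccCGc
Acadl: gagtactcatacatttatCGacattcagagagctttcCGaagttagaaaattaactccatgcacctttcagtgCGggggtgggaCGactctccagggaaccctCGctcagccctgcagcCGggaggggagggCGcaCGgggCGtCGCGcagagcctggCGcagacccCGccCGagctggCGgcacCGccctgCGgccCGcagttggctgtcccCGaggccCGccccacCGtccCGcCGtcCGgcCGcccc
Acaca: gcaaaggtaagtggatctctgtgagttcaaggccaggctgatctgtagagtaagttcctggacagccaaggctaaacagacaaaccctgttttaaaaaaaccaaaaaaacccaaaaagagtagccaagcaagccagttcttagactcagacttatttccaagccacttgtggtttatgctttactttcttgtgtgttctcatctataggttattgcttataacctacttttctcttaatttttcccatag
Ldha: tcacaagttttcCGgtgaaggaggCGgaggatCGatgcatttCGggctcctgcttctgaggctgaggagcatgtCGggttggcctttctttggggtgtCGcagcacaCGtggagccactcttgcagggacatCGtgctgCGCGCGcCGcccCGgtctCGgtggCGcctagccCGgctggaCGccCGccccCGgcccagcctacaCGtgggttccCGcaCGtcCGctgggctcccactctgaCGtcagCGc
Aldoa: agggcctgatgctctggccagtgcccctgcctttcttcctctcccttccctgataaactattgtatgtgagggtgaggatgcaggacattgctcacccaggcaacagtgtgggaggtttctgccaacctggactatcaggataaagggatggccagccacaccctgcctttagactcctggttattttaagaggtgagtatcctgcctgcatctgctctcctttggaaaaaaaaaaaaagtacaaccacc

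The Plin5 stretch (chr17:56117549-56117798, minus strand) has 11 CpG, and the TAC peak at chr17:56117719-56118219 covered 80 of its bases. Plin5 encodes perilipin 5, which coats lipid droplets in oxidative tissue. Its nearest Sham peak lay 5.59 kb from this start. The Pkm stretch (chr9:59656977-59657226, plus strand) has 18 CpG, and the TAC peak at chr9:59656779-59657279 covered all 250 bases. Pkm encodes the muscle pyruvate kinase of the last step of glycolysis, and its nearest Sham peak lay 30.9 kb away. These TAC peaks stood at 42.6% and 52.6% of their list, in its middle. Acadl (chr1:66863310-66863559, minus strand) and Ldha (chr7:46845554-46845803, plus strand) have 25 CpG each in the stretch and no peak on it. The stretches of Acaca (chr11:84195188-84195437, plus strand) and Aldoa (chr7:126800448-126800697, minus strand) have 0 CpG each. This Acaca start, the only one at hand, lies inside the gene, whose annotated 5′ end is at chr11:84129635. Starts of Cd36, Acacb and Ldha, among others, also lie inside the annotated gene. Promoter intervals and the 5′ ends used below are thus not always the same place. Aldoa has other starts, whose intervals hold 23 and 24 CpG, also with no peak.

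CpG numbers overlapped widely between the sets. The whole interval of 300 bases held 1 to 34 CpG in fatty acid genes (median 16) and 0 to 30 in glucose genes (median 17.5), against a median of 13 over 21262 intervals of all protein-coding genes. Intervals under a peak were poorer in CpG across the genome, with a median of 8 in both libraries. The share under a peak did not fall steadily with CpG number. In the class with 0 to 4 CpG, 3.10% had a Sham peak and 3.496% a TAC peak. In that with 5 to 9 CpG, 6.2% had a Sham peak and 6.14% a TAC peak, and in the class with 30 or more it was 0.731% and 1.13%. The class from 10 to 19 CpG held 13 fatty acid and 9 glucose intervals, and that from 20 to 29 held 5 and 15. The median distance from a start to the nearest peak was 6.66 kb in Sham and 5.98 kb in TAC, and 52 of 59 starts had no peak within 1 kb in either library. Neither value was computed over the starts of all genes. Counted by gene at the annotated 5′ end, only 17% of all protein-coding genes had a peak within 1 kb in either library. Starts far from peaks are thus not particular to the members. Hadha and Hadhb, which encode the subunits of the mitochondrial trifunctional protein, are transcribed head to head with 273 bp between their starts, and the nearest peak lay 33.4 kb from it in Sham and 39.3 kb in TAC.

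**Figure D1:**
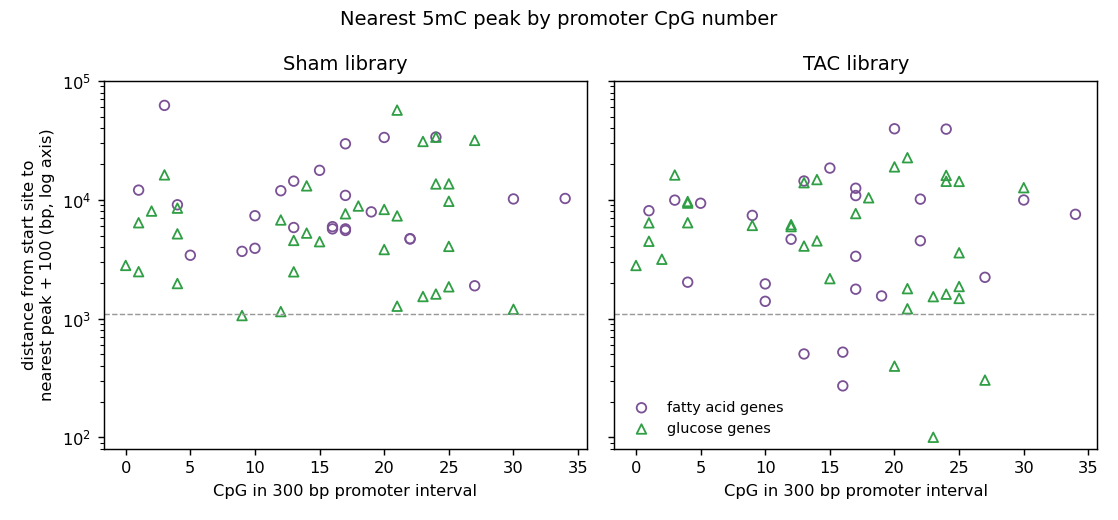
Distance from each RefSeq gene start of the members to the nearest peak (bp plus 100, log axis) against the number of CpG in the promoter interval, for the Sham library (left) and the TAC library (right); circles are fatty acid genes, triangles glucose genes, and the dashed line marks 1 kb. Most of the 59 starts lie above the line in both libraries, and the lowest points, in TAC, are starts of Pkm and Plin5.

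The members' 300-base intervals were searched for 4 motifs on both strands, and matches lay mostly in glucose genes. The hypoxia response core ACGTG, which contains a CpG, was found in 11 of 22 glucose genes (50%) and 2 of 23 fatty acid genes (8.7%), against 23.2% of all protein-coding genes with an interval. The glucose genes with it were Aldoa, Gapdh, Hk1, Hk2, Ldha, Pdk2, Pfkm, Pgk1, Pkm, Pygm and Slc2a1, and the fatty acid genes Acacb and Acadvl. A gene with more than 1 interval is counted once, as a match if any of its intervals matched. Glucose genes had more intervals per gene, 34 for 22 genes against 25 for 23 fatty acid genes. By interval the ACGTG core was found in 38.2% in glucose genes, 8% in fatty acid genes and 20.9% in all protein-coding genes. The E-box CACGTG, which includes that core, was found in Ldha, Pdk2 and Pfkm and in 0 fatty acid genes, against 8.91% of all genes. Neither the ERR element TCAAGGTCA (0.377% of all genes) nor the PPAR direct repeat (0.0572%) was found in a member. A match describes letters only, and of the intervals with the ACGTG core one of Pkm lay under a peak.

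Peaks at the ends of these genes lay mostly at the 3′ end. An end is called covered where any base of a peak fell within 1 kb of it on either side. For the 45 genes with a known strand, the 5′ end was covered in 1 gene in Sham (2.22%, 0.0562 to 11.8), where 11.6% of all protein-coding genes were, and in 4 in TAC (8.89%, 2.48 to 21.2), where 13% were. The 3′ end was covered in 10 in Sham (22.2%, 11.2 to 37.1), against 14.5% of all genes, and in 7 in TAC (15.6%, 6.49 to 29.5), against 14%. All 4 intervals held the share of all genes. In either library the 5′ end was covered in 5 genes (11.1%, 3.71 to 24.1), against 17% of all genes, and the 3′ end in 10 (22.2%), against 19.7%. Among fatty acid genes 0 of 23 had a covered 5′ end in Sham, which allows a share of up to 14.8%.

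**Figure D2:**
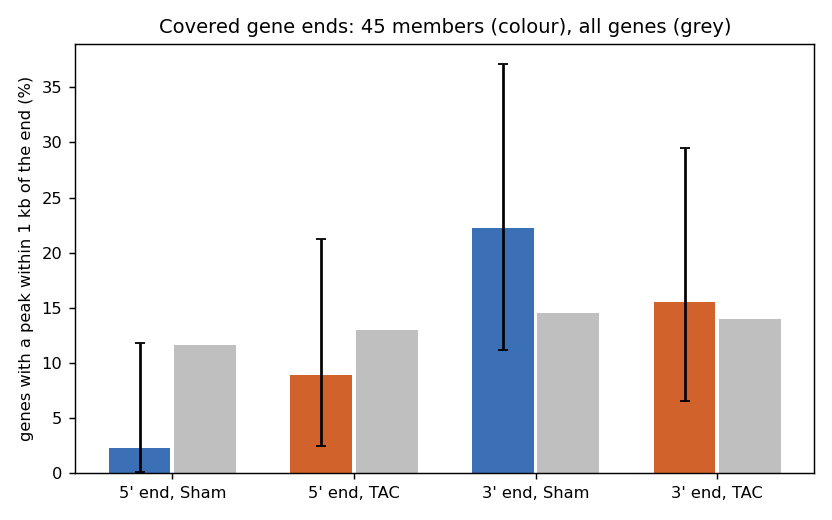
Share of genes with a peak within 1 kb of the annotated 5′ or 3′ end, in percent, for the 45 members with a known strand (coloured bars with exact 95% intervals, blue Sham and orange TAC) and for all protein-coding genes with a known strand (grey bars). The members' 5′ share in Sham is 2.22% beside 11.6% of all genes, and the 3′ share is 22.2% beside 14.5%.

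Counting either end, 7 of 25 fatty acid genes were covered in Sham (28%, 12.1 to 49.4) and 6 in TAC (24%, 9.36 to 45.1). Of 23 glucose genes 4 were covered in each library (17.4%, 4.95 to 38.8). Over all protein-coding genes 23.6% were covered in Sham and 24.5% in TAC. The odds ratio of fatty acid to glucose genes was 1.82 (0.384 to 10.02) in Sham and 1.49 (0.296 to 8.38) in TAC, so the sets could not be told apart at this number of genes. The counts followed the window. With the upper 50% of each list 4 fatty acid genes were covered in Sham, and 1 glucose gene in Sham and 2 in TAC. With 500 bp 2 fatty acid genes were covered in Sham, and with 2 kb 11 fatty acid genes in Sham and 8 glucose genes in Sham and 11 in TAC.

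In fatty acid genes every end covered in Sham was a 3′ end. Acadm, the medium-chain acyl-CoA dehydrogenase gene, had a peak at the 3′ end in both libraries (chr3:153921842-153922342 in Sham), as did Acads, the short-chain enzyme's gene. Pdk4, encoding a kinase that shuts off pyruvate dehydrogenase, Slc25a20, the carnitine-acylcarnitine carrier gene, and Ech1, of the auxiliary enzymes for unsaturated fatty acids, were also covered there in both. In both libraries the 3′ peak of Ech1 lay outside its body in Lgals4, and that of Acads also overlapped Rpl37rt. Of the 48 member windows, 33 overlapped another protein-coding gene, so a peak in a window need not belong to the member. Fabp3, the heart fatty acid binding protein gene, and Mlycd, the malonyl-CoA decarboxylase gene, were covered at the 3′ end in Sham alone. Of glucose genes, Hk1 and Aldoa, encoding hexokinase 1 and aldolase A, were covered at the 3′ end in both, and Slc2a1, the GLUT1 transporter gene, in Sham alone. Covered 5′ ends were those of Ldha, the lactate dehydrogenase A gene, in Sham, and of Slc25a20, Plin5, Pfkl and Pkm in TAC. None of these 5 genes had a covered 5′ end in both libraries. Over all protein-coding genes with a known strand the 5′ end was covered in 11.6% in Sham, 13% in TAC and 17% in either. With so few covered members, no overlap is not read as a difference between libraries. In all, 2 fatty acid and 2 glucose genes were covered in Sham alone (7.68% of all genes), 1 and 2 in TAC alone (8.6%), and 5 and 2 in both (16%). Of the members of 5 to 50 kb, 8 of 20 fatty acid and 5 of 18 glucose genes had an end covered in either library, against 34.1% of all genes of that length, and 8 of 25 and 6 of 23 members of any length did, against 32.2%.

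Fatty acid genes carried fewer peaks for their length than glucose genes in the TAC library. Fatty acid windows, 1220 kb in all, held 74 Sham peaks (6.07 per 100 kb, 4.76 to 7.62) and 64 TAC peaks (5.25, 4.04 to 6.70). Glucose windows, 792 kb, held 53 Sham peaks (6.69, 5.01 to 8.75) and 62 TAC peaks (7.83, 6.003 to 10.04). All protein-coding windows had 6.09 per 100 kb in Sham and 6.62 in TAC. The density ratio of fatty acid to glucose genes was 0.907 (0.629 to 1.32) in Sham and 0.670 (0.465 to 0.966) in TAC. The TAC ratio stayed below 1 in all 10 other settings run, from 0.496 to 0.947, but with the upper 50% of each list it was the Sham ratio that lay farther from 1 (0.697 in Sham, 0.947 in TAC). The interval of the TAC ratio held 1 in 6 of the 10 settings, and these intervals treat neighbouring peaks as independent. Against all protein-coding genes the TAC density was 0.793 times (0.611 to 1.01) in fatty acid and 1.18 times (0.907 to 1.52) in glucose genes, and both intervals held 1.

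The pair of acetyl-CoA carboxylase genes set much of the fatty acid value. Acaca and Acacb make malonyl-CoA, the building block of fatty acid synthesis and the inhibitor of carnitine palmitoyltransferase 1. They held 38 of the 74 Sham peaks (51.4%) and 32 of the 64 TAC peaks (50%). Without them the fatty acid density was 4.37 per 100 kb in Sham and 3.89 in TAC, and its ratio to glucose genes was 0.653 (0.416 to 1.02) and 0.496 (0.314 to 0.773). In a further list of pathway genes the order was the other way. There, 30 other fatty acid genes had 6.36 Sham and 6.03 TAC peaks per 100 kb and 33 other glucose genes 4.60 and 5.02, ratios of 1.38 (1.00 to 1.90) and 1.20 (0.874 to 1.65). The lower fatty acid density of the TAC library was thus not seen in these further genes.

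**Figure D3:**
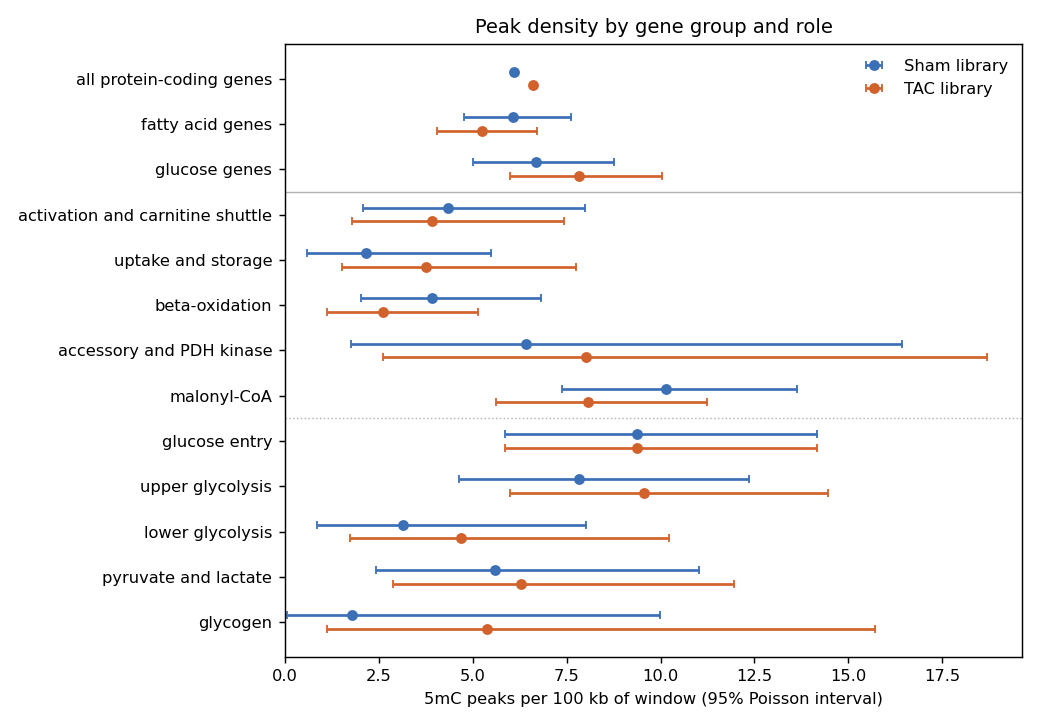
Peaks per 100 kb of window with exact 95% Poisson intervals, in the Sham (blue) and TAC (orange) libraries, for all protein-coding genes, for the fatty acid and glucose genes, and for their roles (5 fatty acid roles above the dotted line, 5 glucose roles below). Genes of malonyl-CoA turnover lie highest among the fatty acid roles in both libraries (10.2 and 8.07), and beta-oxidation genes lie low (3.90 and 2.60).

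The libraries held nearly equal numbers of peaks over the whole list, 127 and 126, a TAC to Sham ratio of 0.992 (0.769 to 1.28), while all protein-coding windows stood at 1.09. The ratio was 0.865 (0.609 to 1.23) in fatty acid and 1.17 (0.798 to 1.72) in glucose genes. The odds ratio between the sets was 0.740 (0.437 to 1.25), and the interval held 1. With the upper 50% of each list alone it was 1.35 (0.609 to 3.03), so its direction turned with the threshold. By gene, 8 fatty acid genes had more TAC than Sham peaks and 12 fewer, and 9 glucose genes had more and 3 fewer. Equal numbers above 0 were found in 2 and 8. Over all protein-coding genes 34.5% had more, 24.8% fewer and 20.9% equal numbers. Most of these differences were of 1 or 2 peaks.

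**Figure D4:**
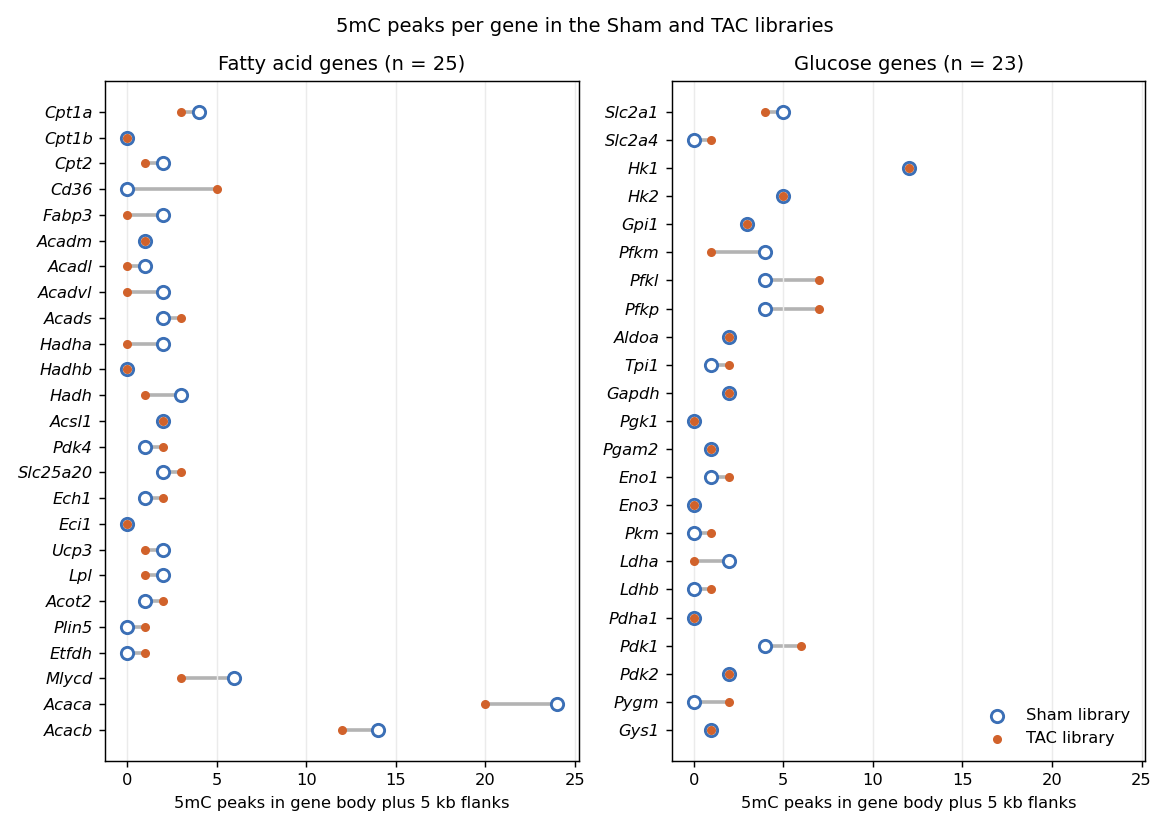
Number of peaks in each gene's body plus 5 kb flanks in the Sham library (open blue circles) and the TAC library (filled orange points), for 25 fatty acid genes (left) and 23 glucose genes (right), with a grey line joining both. Acaca, Acacb and Hk1 stand highest, Cd36 goes from 0 to 5, and most genes differ by 2 peaks or fewer.

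Of the genes for uptake and storage, Cd36 differed most. Cd36, the fatty acid translocase gene (chr5:17781690-17888959, 107 kb), held 0 Sham and 5 TAC peaks. All 5 lay in the gene body, each 501 bp wide, 10.3, 35.9, 63.1, 70.7 and 75.9 kb from the 5′ end, at 48.7% to 97.4% of the TAC list. Its Sham window was empty, and no end was covered. Lpl, the lipoprotein lipase gene, had 2 Sham and 1 TAC peaks, all in the flanks and 1 of them shared. Fabp3 had 2 Sham peaks outside the gene body and 0 in TAC, and the one at its 3′ end overlapped Zcchc17. Plin5 had only the TAC peak at its promoter.

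The carnitine shuttle genes differed by at most 1 peak between libraries. Cpt1a, encoding the liver form of the rate-limiting acyltransferase, held 4 Sham and 3 TAC peaks, with 3 shared. The shared peak 3.9 kb upstream of its 5′ end was 628 bp wide in Sham and 1015 bp in TAC. Cpt1b, the muscle form and the main one of the heart, had no peak in either library. Cpt2, which acts on the inner membrane, held 2 and 1. Slc25a20 held 2 and 3, and both Sham peaks were shared. Acsl1, the main acyl-CoA synthetase gene of the heart, held 2 and 2.

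Beta-oxidation genes held 12 Sham and 8 TAC peaks over 10 genes, 3.90 (2.02 to 6.82) and 2.60 (1.12 to 5.13) per 100 kb. The Sham interval held the density of all protein-coding genes (6.09), and the TAC interval lay below it (6.62). Acadl and Acadvl, the long-chain and very-long-chain dehydrogenase genes, had 1 and 2 Sham peaks and 0 TAC peaks, and both of those at Acadvl lay outside the body in neighbouring genes, Dvl2 and Dlg4. Hadha had 2 Sham peaks, 1 of them outside its body over Garem2, and none in TAC. Hadhb and Eci1, the enoyl-CoA isomerase gene, had none. Hadh, the hydroxyacyl-CoA dehydrogenase gene (38.7 kb), had 3 Sham peaks 28.3 to 35.2 kb from its 5′ end and 1 TAC peak at 1.92 kb, with none shared. Acads held 2 and 3, and the peak at its 3′ end was 501 bp wide in Sham and 1437 bp in TAC. Acadm held 1 and 1, Ech1 1 and 2, and Etfdh, which passes electrons to ubiquinone, 0 and 1. Sharing in this role was 33.3% of Sham peaks (4 of 12, 9.92 to 65.1) and 50% of TAC peaks (4 of 8, 15.7 to 84.3). Both intervals held the share over all protein-coding windows (64.2% and 59.4%).

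Malonyl-CoA genes held the most peaks of the fatty acid set. Acaca (chr11:84129635-84401651, 272 kb) held 24 Sham and 20 TAC peaks, of which 13 were shared. Its strongest by place was in both libraries, chr11:84151369-84152671 in Sham (0.714%) and chr11:84151543-84152910 in TAC (0.634%), a stretch that also lies in Gm11437. Acacb (104 kb), the mitochondrial form, held 14 and 12, with 7 shared. Among its TAC peaks was one of 1041 bp with no Sham partner, 75.0 kb from the 5′ end, at 2.81% of the list. Mlycd, whose product removes malonyl-CoA, held 6 and 3. Its peaks at chr8:119404587-119405765 and chr8:119416373-119418103 in Sham were within the first 0.553% of that list, and their TAC partners, 1272 and 1943 bp wide, within the first 0.134%. The 3 Sham peaks without a partner lay at its 3′ end and downstream of it, and the shared ones upstream or within the body. The farthest downstream overlapped Osgin1. All 3 of these genes had fewer TAC peaks, as did 24.8% of all protein-coding genes. Their TAC to Sham ratio was 0.795 (0.495 to 1.27), and the interval held 1.

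Of the other fatty acid genes, Pdk4 held 1 and 2, Ucp3, encoding a mitochondrial uncoupling protein, 2 and 1, and Acot2, a mitochondrial thioesterase gene, 1 and 2 with none shared. The Pdk4 peak at the 3′ end was 501 bp wide in Sham and 765 bp in TAC.

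Glucose entry genes held 22 peaks in each library. Hk1 (chr10:62268855-62379920, 111 kb) held 12 and 12, of which 8 were shared, so 4 differed on either side. Its strongest peak, 59.9 kb from the 5′ end, stood at 3.28% of the Sham list and 2.996% of the TAC list. Hk2, the insulin-responsive hexokinase gene, held 5 and 5, with 3 shared, and 2 of these lay upstream of the gene. Slc2a1 held 5 and 4, with 2 shared, and its Sham peak of 1471 bp had no TAC partner. Slc2a4, the GLUT4 gene, had 0 and 1, and that peak lay outside the body.

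Upper glycolysis held the largest differences of the glucose set, in both directions. Pfkm, the muscle phosphofructokinase gene (39.9 kb), held 4 Sham peaks and 1 TAC peak, and its Sham peak of 1224 bp, 5.68 kb from the 5′ end, had no partner. Pfkl and Pfkp, the liver and platelet forms, each held 4 and 7. All 4 Sham peaks of Pfkp (69.2 kb) were shared, and its 3 further TAC peaks stood at 56.5% to 94.1% of the list. Of Pfkl (22.9 kb), 3 Sham peaks were shared. One of them, 8.48 kb from the 5′ end, was 501 bp wide at 84.6% of the Sham list and 1503 bp wide at 9.30% of the TAC list. A further TAC peak lay 0.547 kb upstream of its 5′ end. Gpi1, the glucose phosphate isomerase gene, held 3 and 3, Aldoa 2 and 2, both shared, and Tpi1, the triose phosphate isomerase gene, 1 and 2, all of them over Usp5.

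**Figure D5:**
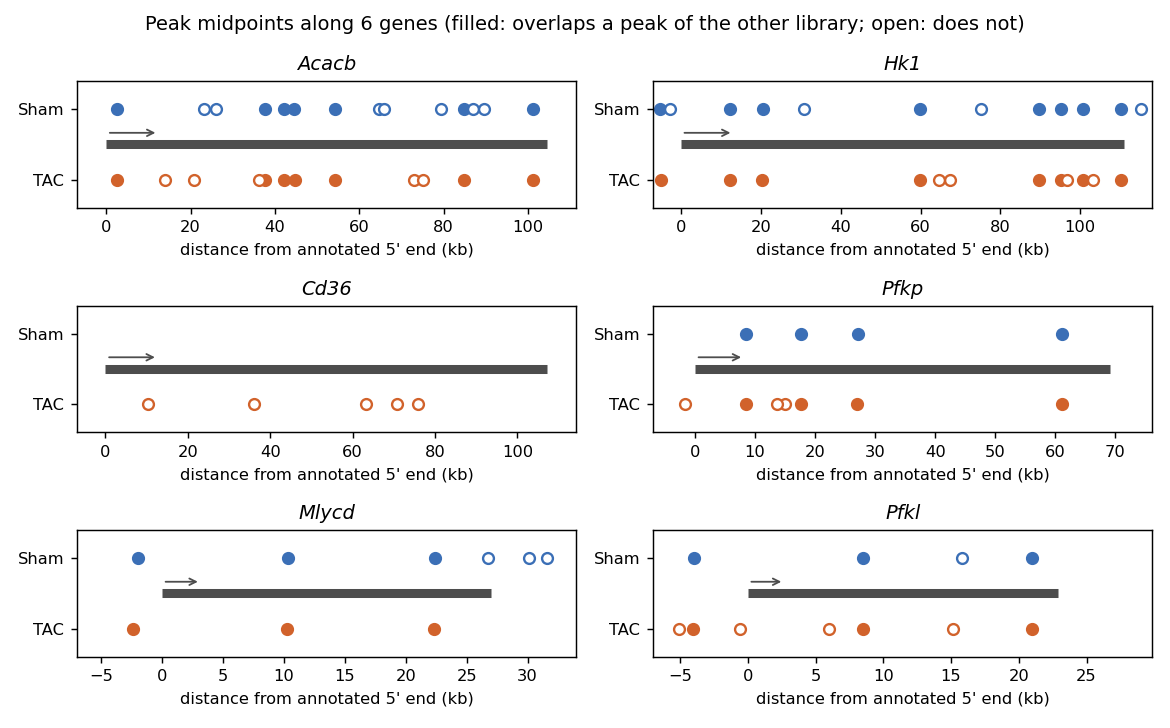
Peak midpoints by distance from the annotated 5′ end (kb) in Acacb, Cd36, Mlycd, Hk1, Pfkp and Pfkl, with Sham peaks above and TAC peaks below the gene (grey bar, arrow in the direction of transcription); filled points share at least 1 bp with a peak in the opposite library. Cd36 has 5 open TAC points and no Sham point, all 4 Sham points of Pfkp are filled, and the open Sham points of Mlycd lie at its 3′ end and beyond.

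Lower glycolysis genes held 4 Sham and 6 TAC peaks over 6 genes, 3.13 (0.853 to 8.02) and 4.70 (1.72 to 10.2) per 100 kb, and both intervals held the density of all genes. Gapdh held 2 and 2, all outside the body in Iffo1, and Pgam2, the muscle phosphoglycerate mutase gene, 1 and 1 in Dbnl. Eno1, encoding alpha-enolase, held 1 and 2, downstream of the gene. Eno3, the muscle enolase gene, and Pgk1, the phosphoglycerate kinase gene on chromosome X, had none. Of the pyruvate and lactate genes, Ldha held 2 Sham peaks and 0 in TAC, one of them across its annotated 5′ end at chr7:46841987-46842487 and at 92.1% of the list. Ldhb, the heart form of lactate dehydrogenase, held 0 and 1. Pdk1 held 4 and 6 with 2 shared. Pdk2, a further pyruvate dehydrogenase kinase gene, held 2 and 2, both shared, and the upstream pair lay over Itga3. Pdha1, which encodes the E1 alpha subunit that these kinases phosphorylate and lies on chromosome X, had none. Of the glycogen genes, Pygm, encoding muscle phosphorylase, held 0 and 2, both in the body. Gys1, the muscle glycogen synthase gene, held 1 and 1, a shared peak at chr7:45439980-45441030 in Sham and chr7:45439244-45440899 in TAC, within the first 0.418% and 0.163% of the lists.

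Peaks outside the gene body were counted by side. In genes with a known strand, 11 of 72 Sham peaks of fatty acid genes had their midpoint downstream of the 3′ end (15.3%) and 4 of 63 TAC peaks did (6.35%), against 8.31% and 8.59% in all genes. In glucose genes 9 of 53 Sham peaks (16.98%) and 13 of 61 TAC peaks (21.3%) lay upstream of the 5′ end, against 8.66% and 9.35%. Fatty acid genes had 4 and 7 peaks there, and glucose genes had 5 (9.43%) and 6 (9.84%) downstream. No intervals were computed for these shares. The median gene length was 22.5 kb in fatty acid, 16.6 kb in glucose and 17.2 kb in all protein-coding genes. Flanks of 5 kb take a larger part of the window in shorter genes, and the shares were not corrected for this. The median does not show that part: windows came to 792 kb for 23 glucose genes, 1220 kb for 25 fatty acid genes and 1181500 kb for all 21883 genes. Flanks thus took a larger part of glucose windows than of the others. The higher upstream shares of glucose genes are therefore not read as a trait of these genes.

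Genes without any peak were found in both sets at like shares. In both libraries 3 of 25 fatty acid genes (Cpt1b, Eci1 and Hadhb; 12%, 2.55 to 31.2) and 3 of 23 glucose genes (Eno3, Pdha1 and Pgk1; 13.0%, 2.78 to 33.6) had none, against 19.8% of all protein-coding genes. Within gene bodies alone these numbers were 9 and 8, with the upper 50% of each list 8 and 8, and with 10 kb on either side 0 fatty acid genes had none. In Sham, 6 fatty acid and 7 glucose genes were empty (29.9% of all genes), and in TAC 7 and 4 (25.2%). Peaks in Sham alone were found in 4 fatty acid genes (Acadl, Acadvl, Fabp3 and Hadha) and in Ldha, against 5.4% of all genes, and peaks in TAC alone in Cd36, Etfdh and Plin5 and in Ldhb, Pkm, Pygm and Slc2a4, against 10.1%. All 5 genes with peaks in Sham alone were 5 to 50 kb long, a class in which 6.37% of all genes had them. In that class 2 of 20 fatty acid and 4 of 18 glucose genes had peaks in TAC alone, against 10.9%, and 3 and 3 had none in either library, against 16.4%. In 30 genes both libraries had a peak, and in 28 of them at least 1 was shared. Hadh and Acot2 were the others. Over all genes, those outside the shares of 19.8% (none), 5.4% (Sham alone) and 10.1% (TAC alone) had peaks in both. How many of those had a shared peak was not computed, so the 28 of 30 has no background.

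Fewer Sham peaks were shared in fatty acid than in glucose genes, though the difference was within counting error. Of 74 Sham peaks in fatty acid windows 37 (50%, 38.1 to 61.9) overlapped a TAC peak by at least 1 bp, and of 53 in glucose windows 34 (64.2%, 49.8 to 76.9), an odds ratio of 0.561 (0.253 to 1.22). Of TAC peaks 57.8% (44.8 to 70.1) and 54.8% (41.7 to 67.5) were shared. Over all protein-coding windows 64.2% of Sham and 59.4% of TAC peaks were shared, and the upper bound for Sham peaks of fatty acid genes was 61.9%. That bound was above 64.2% under several other settings, among them without flanks (66.0%), with 10 kb flanks (66.2%) and without Acaca and Acacb (64.5%). In the last of these the shared part itself was lower, 47.2% of 36 peaks. The share of all genes at other flanks is not given here. Among settings where the bound stayed below 64.2% were overlap by 50% of the shorter peak (60.6%) and Pdk4 moved to the glucose genes (61.3%). So were the list without Acaca (62.6%) and genes of 5 to 50 kb (62.6%). In the further pathway genes the order was the opposite, with 70.1% of Sham peaks shared in fatty acid and 62.5% in glucose genes. With the upper 50% of each list the Sham order turned, to 65.5% in fatty acid and 48.1% in glucose genes. Unshared peaks numbered 37 in Sham and 27 in TAC for fatty acid genes, and 19 and 28 for glucose genes.

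Peaks shared by the libraries could be compared in width and place. Of 37 fatty acid pairs 19 were wider in TAC, 5 wider in Sham and 13 equal, so 51.4% were wider in TAC, against 34.9% of 90625 pairs genome-wide. No interval was computed for this share, so it is not read as a difference. Of 34 glucose pairs 12 were wider in TAC, 13 in Sham and 9 equal. The TAC peak stood nearer the top of its list in 25 fatty acid pairs (67.6%, 50.2 to 82.0) and in 18 glucose pairs (52.9%, 35.1 to 70.2), against 58.4% genome-wide, and both intervals held that value. Of the 37 fatty acid pairs 23 came from the genes of malonyl-CoA turnover, so the pairs are not independent.

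Further genes of the same pathways, from lists chosen by function, also differed in both directions. Among 30 further fatty acid genes (77 Sham and 73 TAC peaks) 7 had more and 11 fewer TAC peaks, and Acot1, Acot13 and Dgat1 had none in either library. Of 33 further glucose genes (88 and 96 peaks), 12 had more and 9 fewer, and G6pdx, Mpc1, Mpc2 and Pdp1 had none. Their TAC to Sham ratios were 0.948 (0.679 to 1.32) and 1.09 (0.808 to 1.47). Ends were covered in 8 of the further fatty acid genes in each library and in 6 and 3 of the further glucose genes.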

How the data were processed

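MeDIP-seq libraries of the Sham and TAC groups (1 each) were compared, and the Input library was not analysed here beyond its use by the authors. Per the submitters' processing notes, BWA 0.7.4-r385, Picard and HOMER 4.5 were used on mm10. Per the file headers, HOMER called broad regions in each library separately against input, at peak size 500 bp, with at least 1000 bp between peaks, 4-fold over input and a Poisson p-value of 0.0001. The score that the authors deposited is 1 for every peak and was not used. Peak starts were converted to 1-based positions.

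Peaks were counted when they overlapped a window (gene plus 5 kb) by at least 1 bp, once per gene set. RefSeq gives gene starts and ends, and strand came from its promoter table. Ratios carry exact binomial intervals and shares Clopper-Pearson intervals at 95%. Counting was done in Python 3.11.15 with scipy 1.17.1 and tested on simulated data. The genes, lists and rule for named genes (covered ends, peaks in 1 library, the 8 with most peaks, differences of 3 or more) were chosen with earlier results of these data known. Motifs, the pairs of shared peaks and the class of 5 to 50 kb were added after seeing the data.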

Additional observations from a re-analysis of the deposited data

How the results depend on the processing

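Of 122 values recomputed under other settings, 107 stayed within the reported value's interval, or within 1.5 times of a count, and 15 did not. Some of the 107 could not change. Reducing the TAC list leaves the Sham density ratio and the Sham end counts as they were. Acaca and Acacb have peaks but no covered end, so leaving them out keeps the end and peak-free counts. The 107 is thus no measure of robustness. The number of genes free of peaks in both libraries was 9 fatty acid and 8 glucose genes without flanks, 0 fatty acid genes with 10 kb flanks, and 8 and 8 with the upper 50% of each list. With that part, gene ends were covered in 4 fatty acid genes in Sham and in 1 (Sham) and 2 (TAC) glucose genes, the shared part of Sham peaks was 65.5% in fatty acid and 48.1% in glucose genes, and the odds ratio of TAC to Sham peaks between the sets was 1.35. With a gene-end window of 500 bp 2 fatty acid genes were covered in Sham, and with 2 kb 11 fatty acid genes in Sham and 8 (Sham) and 11 (TAC) glucose genes. The odds ratio turned from below to above 1 and the order of the shared parts turned too, and the cause of these changes was not tested.

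The TAC density ratio of fatty acid to glucose genes kept an interval below 1 in 4 of 10 settings: with Pdk4 moved to the glucose genes (0.660), without Acaca (0.599), without Acaca and Acacb (0.496) and in genes of 5 to 50 kb (0.572), a class chosen after seeing the data. The interval held 1 without flanks (0.724), with 10 kb flanks (0.823), with the upper 50% of each list (0.947), with the TAC list reduced to the Sham number (0.674), without Hk1 (0.704) and without peaks over other coding genes (0.696). The last setting kept windows at full length, so its ratio is not one of densities outside other genes. No paired analysis was possible because each group has 1 library. Each set held 53 to 74 peaks per library, which limits the precision of every ratio.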
